A study of Mus musculus with 2 samples.

Results

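The 9 genes described here, *Ifngr1*, *Ifngr2*, *Jak1*, *Jak2*, *Stat3*, *Irf1*, *Socs1*, *Socs3* and *Cish*, encode the interferon-γ receptor, its kinases, downstream transcription factors and feedback inhibitors. They were picked by symbol from the 31053 genes of the count tables, and all 9 had at least 1 UMI in each library. Bone marrow came from hybrid mice of C57BL/6 and Balb/c background. Radiation control (RC) mice received 300 rads, and severe aplastic anemia (SAA) mice received 300 rads and 65000000 B6 splenocytes, so that irradiation was common to both groups. SAA mice therefore carried both host cells and donor lymphocytes. Live 7-AAD- CD11b+ Ly6C+ Ly6G- cells of 3 mice made up a single library for each group, so no difference between mice can be measured and no test between the groups was possible. Levels rest on UMIs (unique molecular identifiers, 1 for each captured transcript), summed over a class of cells and expressed per 1000000 UMIs of that class (CPM). CPM carry exact Poisson 95% intervals, SAA to RC ratios carry exact conditional binomial 95% intervals, and shares of cells carry Clopper-Pearson 95% intervals. All of them cover counting error only.

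Interferon-γ binds a receptor made of an IFNGR1 and an IFNGR2 chain, which carry the kinases JAK1 and JAK2 on their inner side. The activated kinases phosphorylate STAT proteins, which enter the nucleus and bind GAS elements (interferon-γ-activated sites) in target genes such as *Irf1*. IRF proteins in turn bind interferon-stimulated response elements (ISREs), and SOCS proteins and CIS, the product of *Cish*, close the loop by inhibiting kinases or receptors. STAT3 serves other cytokines of myeloid cells, among them interleukin-6, interleukin-10 and G-CSF. In aplastic anemia interferon-γ from T cells is a known driver of marrow failure.

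The promoters of the transcription factor *Irf1* and the 3 feedback genes are shown because these 4 genes had the highest SAA to RC ratios of the 9, in either class. Capitals mark matches to a GAS, TTCNNNGAA, which equals its own reverse complement, or to an ISRE core, GAAA followed by any 2 bases and GAAA, both searched on both strands. Windows ran from 250 bases before to 50 bases after each RefSeq gene start (GRCm38.p6), and all 9 genes had a window. For *Irf1*, *Socs1* and *Socs3* the 250 bases before the RefSeq start are printed, and for *Cish* the 30 bases that hold its matches. The annotation used for the gene positions given below places the starts of *Socs3* and *Cish* further upstream. By those positions the stretches printed for these genes lie inside the gene, and which start these cells use was not tested.
Irf1, chr11:53769764-53770013, plus strand: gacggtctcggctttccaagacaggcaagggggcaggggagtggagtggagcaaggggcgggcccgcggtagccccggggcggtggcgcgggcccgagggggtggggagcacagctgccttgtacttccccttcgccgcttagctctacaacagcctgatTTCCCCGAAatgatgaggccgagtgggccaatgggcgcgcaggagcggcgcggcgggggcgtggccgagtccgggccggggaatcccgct
Socs1, chr16:10785537-10785786, minus strand: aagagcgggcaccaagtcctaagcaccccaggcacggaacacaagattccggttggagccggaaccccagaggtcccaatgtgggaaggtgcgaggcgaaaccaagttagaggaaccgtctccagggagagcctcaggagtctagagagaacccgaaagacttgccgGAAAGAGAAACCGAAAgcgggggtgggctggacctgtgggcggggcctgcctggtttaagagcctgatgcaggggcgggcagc
Socs3, chr11:117969367-117969616, minus strand: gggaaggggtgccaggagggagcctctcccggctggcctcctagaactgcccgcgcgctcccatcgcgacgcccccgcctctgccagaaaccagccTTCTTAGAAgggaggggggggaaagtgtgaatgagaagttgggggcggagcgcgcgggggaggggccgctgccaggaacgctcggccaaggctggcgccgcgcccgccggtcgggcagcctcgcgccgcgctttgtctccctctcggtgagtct
Cish, chr9:107296655-107296684, plus strand: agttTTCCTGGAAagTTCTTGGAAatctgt
The *Irf1* GAS began 90 bases before the RefSeq start and that of *Socs3* 154 bases before its RefSeq start. *Socs1* held 2 ISRE cores, beginning 83 and 77 bases before its start and overlapping by 4 letters. *Cish* held 2 GAS, one beginning at the RefSeq start and one 11 bases after it. The other 5 genes, *Ifngr1*, *Ifngr2*, *Jak1*, *Jak2* and *Stat3*, had neither motif in their window. Of all 32851 promoter windows 8.30% held the GAS and 3.44% the ISRE core, so a match describes the letters of a window and is not evidence of binding.

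The RC library held 4066589 UMIs in 798 barcodes and the SAA library 5592265 in 825, of which 662 and 729 barcodes with at least 1000 detected genes were retained. A cell was monocyte-like when its UMIs of *Csf1r*, *Ccr2*, *F13a1*, *Ms4a6c* and *Ly86* outnumbered those of *Camp*, *Ngp*, *Fcnb*, *Cebpe*, *Elane*, *Mpo*, *Prtn3* and *Ctsg*, and granulocyte-like in the reverse case. There were 342 monocyte-like cells in RC against 285 in SAA, with medians of 3347.5 and 6082 UMIs, and granulocyte-like cells 318 and 421, with 6787.5 and 6849. Ties left 2 RC and 23 SAA cells unclassified. The sort gate was set against Ly6G+ cells, yet 8 granulocyte genes not used by the rule summed to 133560 CPM in RC granulocyte-like cells against 120284 CPM in SAA ones. *S100a8* made up most of both sums, at 117449 and 99814 CPM. *Mmp8* alone was lower than in monocyte-like cells, at 1.61 against 83.2 CPM in RC and 5.73 against 47.3 in SAA. In monocyte-like cells the same 8 genes summed to 2055 CPM for RC against 11418 CPM for SAA, and their part in the results below was not tested. Most of that difference was *S100a8*, at 948 and 9024 CPM, and *Chil3*, at 607 and 1983 CPM, while *Cd177*, *Mmp8* and *Anxa1* of the same list were lower in SAA. A further 8 monocyte genes not used by the rule separated the classes less. They summed to 20351 CPM in monocyte-like against 8710 CPM in granulocyte-like cells of RC, and to 15482 against 10419 CPM in SAA. *Cybb* alone of these was lower in monocyte-like cells, at 1418 against 1498 CPM in RC and 1008 against 2181 in SAA. The summed CPM of 12 T or NK cell markers went from 5.89 to 160 in monocyte-like cells, with 4 of the 12 detected in RC and all 12 in SAA, and from 409.7 to 354 in granulocyte-like cells, where most of it was *Nkg7*. At least 2 UMIs of *Cd3e*, *Cd3d*, *Cd3g* and *Trac* were held by 6 monocyte-like and 11 granulocyte-like cells of SAA, and leaving these barcodes out kept each of the 18 ratios of the 9 genes in 2 classes within its interval. B cell, erythroid, dendritic and basophil or mast cell marker lists each stayed at or under 17.7 CPM in both classes. A single barcode sequence occurred in both libraries and was retained in RC only.

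In monocyte-like cells *Jak2*, *Irf1*, *Socs1* and *Socs3* were at least 2-fold higher in SAA and *Ifngr1* was at least 2-fold lower. In granulocyte-like cells *Irf1*, *Socs1*, *Socs3* and *Cish* were at least 2-fold higher and *Ifngr1* was again lower, although its 2-fold call there was lost in 5 alternatives given with the gene. Of the 9 genes 8 reached 20 UMIs over both libraries in monocyte-like cells (*Cish* had 19) and 9 in granulocyte-like cells, so that 4 of 8 and 4 of 9 were past 2-fold upward. Among all genes with 20 UMIs, 7.8% of 8662 were at least 2-fold higher in SAA in monocyte-like cells and 8.67% were at least 2-fold lower. The shares were 6.63% and 5.12% of 8812 genes in granulocyte-like cells. The median log2 ratio of those that reached 20 UMIs was 0.78 in monocyte-like and 0.94 in granulocyte-like cells, beside -0.06 and 0.04 over all genes. The spread among them was wide, since *Socs1* lay above 99.9% of all genes in monocyte-like cells and *Ifngr1* above 4.23% of them. With 1 library per group none of these folds has a replicate check.

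**Figure D1:**
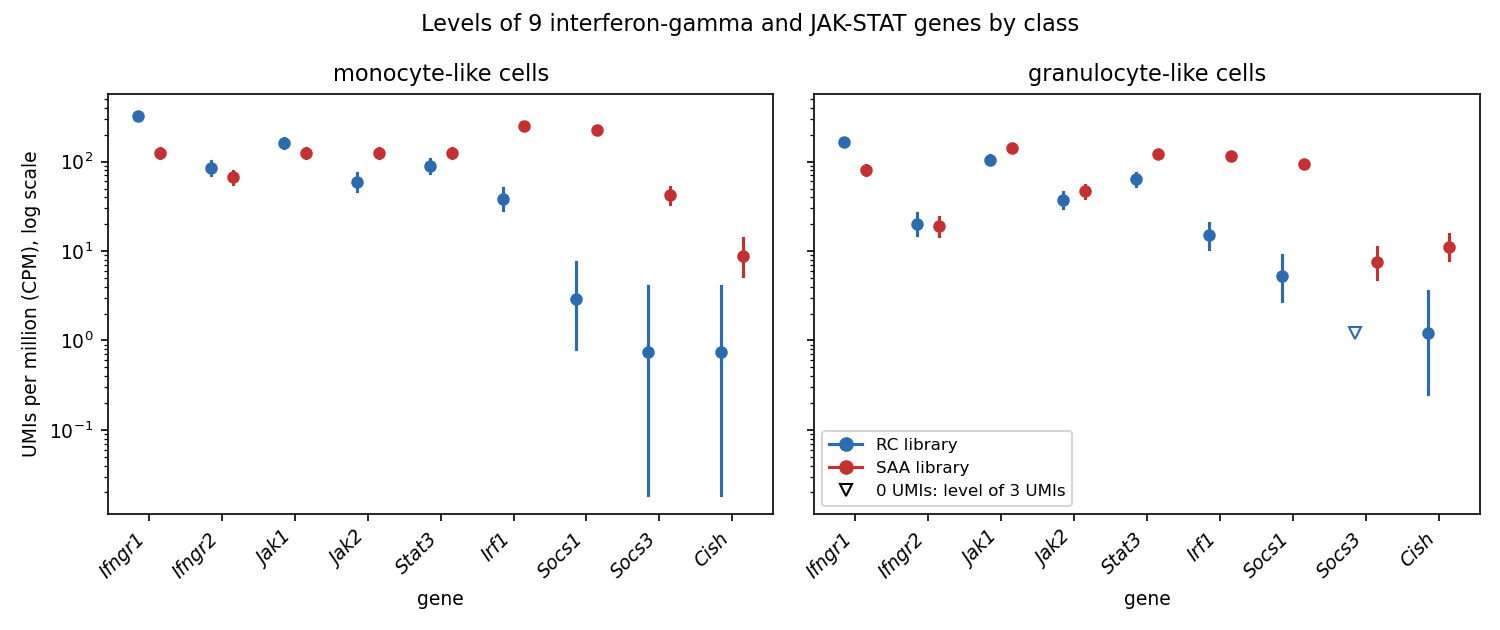
Level (CPM, log scale) of the 9 genes in monocyte-like (left) and granulocyte-like cells (right), blue for RC and red for SAA. Bars are exact Poisson 95% intervals, and levels are to be compared within a gene. *Irf1* and *Socs1* of SAA lie far above RC in both panels and *Ifngr1* of SAA lies below, and the open triangle marks the level of 3 UMIs for *Socs3*, which was not detected in RC granulocyte-like cells.

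*Ifngr1* (chromosome 10, 19591949 to 19610229, plus strand; coordinates of genes are from a GRCm38 annotation), the ligand-binding chain, was measured at 321 CPM (292–353) in RC monocyte-like cells and at 124 CPM (109–140) in SAA ones. Granulocyte-like cells held 164 CPM (148–180) in RC against 80.2 CPM (70.9–90.5) in SAA. The intervals of the libraries did not overlap in either class. SAA to RC ratios were 0.386 (0.329–0.451) in monocyte-like and 0.490 (0.418–0.573) in granulocyte-like cells. Within each library the gene was higher in monocyte-like cells, 1.96 times (1.71–2.25) in RC and 1.54 times (1.29–1.84) in SAA.

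The receptor chain differed further by maturation stage. Monocyte-like cells were called cycling when at least 0.1% of their UMIs came from 8 cell cycle genes (91 RC and 128 SAA cells), and granulocyte-like cells were split by early azurophil against later granule genes (51 early and 266 late cells in RC, 31 and 389 in SAA). In RC *Ifngr1* was at 384 CPM in early and 98.0 CPM in late granulocyte-like cells, a ratio of 3.92 (3.21–4.79). The same 2 groups of SAA stood at 135 and 71.8 CPM, a ratio of 1.88 (1.39–2.52). Early cells thus carried more *Ifngr1* RNA than late ones in both libraries. The SAA to RC ratio was 0.352 (0.260–0.469) in early and 0.733 (0.598–0.899) in late cells, and 0.294 (0.231–0.372) in non-cycling and 0.562 (0.443–0.714) in cycling monocyte-like cells. All 4 intervals lay below 1, yet only the early and the non-cycling cells were past 2-fold. The early share of granulocyte-like cells thus differed between the libraries. With the RC mixture of early and late cells applied to both libraries, a comparison added after the data were seen, the log2 ratio of the class was -0.93 instead of -1.03, with cells weighted equally it was -0.82 and with cells thinned to 1 depth it was -0.52. With totals lacking the 5% of genes most different it was -0.99. Without cells holding 3 UMIs of T or NK markers, which left out 96 RC and 82 SAA granulocyte-like cells, it was -0.36. That marker list was mostly *Nkg7* in this class, 981 of 1016 UMIs in RC and 784 of 1175 in SAA. Only 2 RC and 11 SAA cells of the class held at least 2 UMIs of *Cd3e*, *Cd3d*, *Cd3g* and *Trac*. Most of the cells left out therefore did not carry these T cell markers. The direction thus held under each of these 5 alternatives and the 2-fold difference under none of the 5. The thinned value depends on the draw. In the draw reported below an *Ifngr1* UMI was held by 24.0% of RC and 19.4% of SAA granulocyte-like cells. Over all draws 25.1% and 16.9% were expected.

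*Ifngr2* (chromosome 16, 91547072 to 91565623, plus strand), the signal-transducing chain, reached 84.7 CPM (69.9–102) in RC monocyte-like cells and 66.6 CPM (55.8–78.8) in SAA ones. Granulocyte-like cells held 20.2 CPM (15–26.6) in RC against 19.0 CPM (14.6–24.3) in SAA. Here the libraries overlapped in both classes, with ratios of 0.786 (0.609–1.02) and 0.942 (0.640–1.39). In granulocyte-like cells the sign of the log2 ratio was not fixed, since it ran from -0.38 to 0.15 over the alternatives. The classes, by contrast, stood apart in both libraries. Monocyte-like cells held 4.2 times (2.99–5.98) the granulocyte-like level in RC and 3.50 times (2.58–4.80) in SAA.

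*Jak1* (chromosome 4, 101152367 to 101265282, minus strand), the kinase bound to IFNGR1 and shared by many cytokine receptors, reached 162 CPM (141–185) in RC monocyte-like cells and 125 CPM (110–142) in SAA ones. In granulocyte-like cells the order was the opposite, with 105 CPM (92.9–119) in RC against 144 CPM (131–157) in SAA. Ratios were 0.773 (0.643–0.930) in monocyte-like and 1.36 (1.17–1.59) in granulocyte-like cells, and both differences were under 2-fold. The monocyte-like level was 1.54 times (1.28–1.85) the granulocyte-like level in RC, whereas in SAA it was 0.872 times (0.746–1.02). Its locus overlaps *Raver2*, which lies on the opposite strand.

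*Jak2* (chromosome 19, 29251828 to 29313080, plus strand), the kinase bound to IFNGR2 and to the receptors of GM-CSF and interleukin-3, reached 59.6 CPM (47.4–74.1) in RC monocyte-like cells and 124 CPM (109–141) in SAA ones. Granulocyte-like cells held 37.1 CPM (29.9–45.5) in RC against 46.4 CPM (39.4–54.4) in SAA. The libraries were apart in monocyte-like cells and overlapped in granulocyte-like cells. Ratios were 2.08 (1.62–2.71) and 1.25 (0.961–1.64). Among granulocyte-like cells the early ones had a ratio of 2.06 (1.21–3.58) and the late ones 1.11 (0.811–1.52), with overlapping intervals. Non-cycling and cycling monocyte-like cells had ratios of 2.17 (1.53–3.13) and 2.0 (1.37–3.0), whose intervals overlapped as well. The monocyte-like excess over granulocyte-like cells was 1.61 (1.18–2.19) in RC and 2.67 (2.18–3.29) in SAA.

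*Stat3* (chromosome 11, 100885098 to 100939540, minus strand), a transcription factor of the interleukin-6, interleukin-10 and G-CSF pathways, reached 89.1 CPM (73.9–106) in RC monocyte-like cells and 126 CPM (111–142) in SAA ones. Granulocyte-like cells held 63.3 CPM (53.8–74.0) in RC against 122 CPM (110–134) in SAA. Ratios were 1.41 (1.13–1.77) and 1.92 (1.59–2.32), both under 2-fold. Within the classes the sub-groups went apart. Cycling monocyte-like cells had a ratio of 2.64 (1.72–4.23) and non-cycling ones 1.13 (0.856–1.5), while late granulocyte-like cells had 2.25 (1.81–2.81) and early ones 0.899 (0.562–1.42). Levels in SAA were close together in non-cycling, cycling and late cells, at 136, 119 and 129 CPM, where those of RC had been 120, 44.8 and 57.4 CPM. Without cells holding 3 UMIs of T or NK markers, mostly *Nkg7* in this class, the granulocyte-like log2 ratio was 1.35 instead of 0.94, past 2-fold. *Stat5a*, on the opposite strand, overlaps the locus.

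*Irf1* (chromosome 11, 53770014 to 53778374, plus strand), which encodes an activator of interferon-inducible genes, reached 38.3 CPM (28.6–50.2) in RC monocyte-like cells and 247 CPM (226–270) in SAA ones. Granulocyte-like cells held 14.9 CPM (10.5–20.6) in RC against 114 CPM (103–126) in SAA. The libraries stood far apart in both classes. Ratios were 6.45 (4.84–8.76) and 7.66 (5.46–11.1). Every sub-group had a higher level in SAA, with ratios of 5.80 (4.10–8.41) in non-cycling and 9.04 (5.30–16.8) in cycling monocyte-like cells, and of 6.44 (3.52–12.7) in early and 8.65 (5.71–13.7) in late granulocyte-like cells. These 4 intervals overlapped one another. The monocyte-like level was 2.57 times (1.65–4.02) the granulocyte-like level in RC and 2.16 times (1.89–2.48) in SAA. The overlapping gene *Gm17334* lies on the opposite strand.

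**Figure D2:**
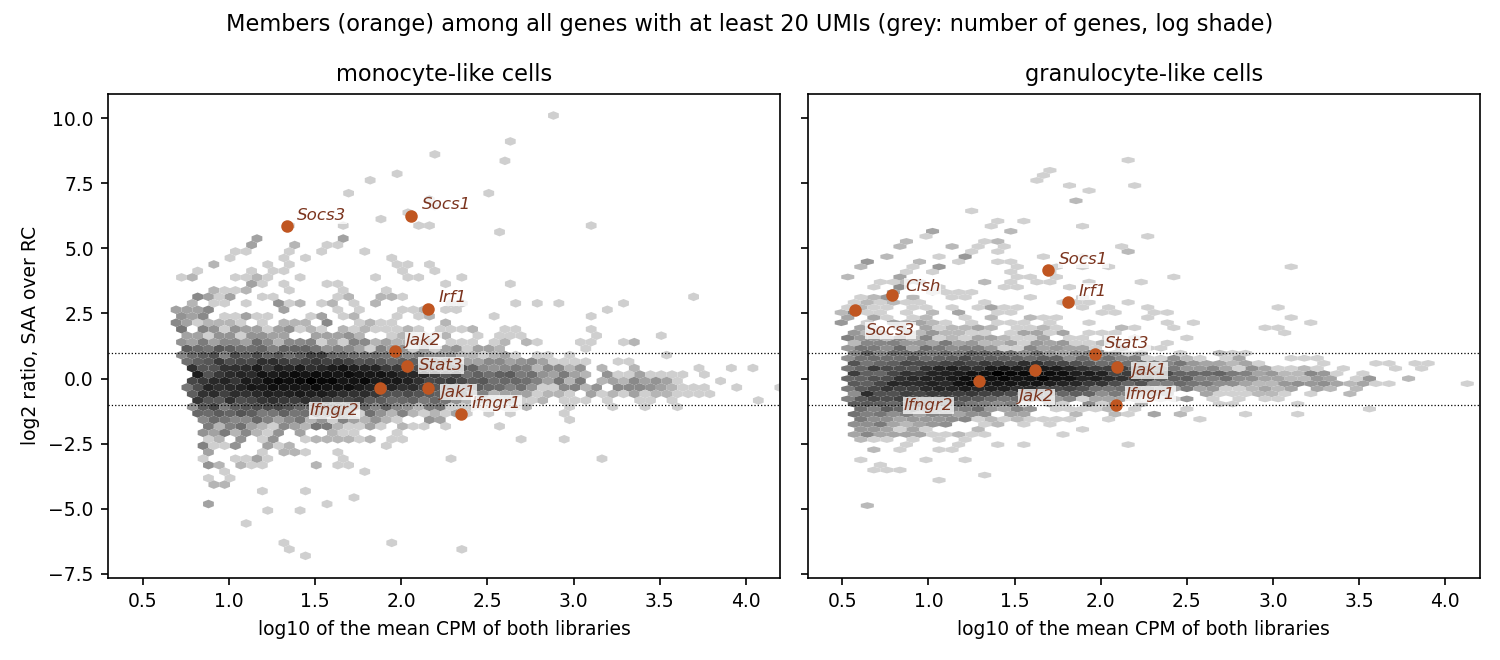
SAA to RC ratio (log2) against mean level (log10 CPM) of all genes with at least 20 UMIs over both libraries in monocyte-like (left, 8662 genes) and granulocyte-like cells (right, 8812 genes), with grey shade for the number of genes and dotted lines at 2-fold. *Socs1*, *Socs3* and *Irf1* (orange) lie above the dense band in both panels and *Ifngr1* lies past the lower dotted line, and the granulocyte-like point of *Socs3* is a lower bound.

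*Socs1* (chromosome 16, 10782240 to 10785536, minus strand) encodes an inhibitor that binds JAK kinases and limits interferon signalling. RC monocyte-like cells held 4 of its UMIs and SAA ones 457, or 2.94 CPM (0.802–7.54) and 225 CPM (205–247). The granulocyte-like counts were 13 and 312 UMIs, or 5.24 CPM (2.79–8.96) and 94.1 CPM (83.9–105). The gene was thus near its floor in RC and well measured in SAA. Ratios were 76.5 (29.7–282) in monocyte-like and 18.0 (10.3–34.1) in granulocyte-like cells. Among SAA cells monocyte-like ones held 2.39 times (2.07–2.77) the granulocyte-like level, and non-cycling and cycling monocyte-like cells stood at 253 and 206 CPM. In RC 4 and 13 UMIs do not order the classes, with a ratio of 0.562 (0.133–1.82). With cells thinned to 1 depth the granulocyte-like log2 ratio was 5.25 instead of 4.17, a value that depends on the draw. In the draw reported below *Socs1* was found in 2 RC cells of this class (0.631%), where 1.10% was expected over all draws. The SAA shares were 18.6% drawn and 18.3% expected.

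*Socs3* (chromosome 11, 117966079 to 117970047, minus strand), an inhibitor of the interleukin-6 and G-CSF receptors, was seen as 1 UMI in RC monocyte-like cells and as 86 in SAA ones, 0.736 CPM (0.0186–4.10) and 42.4 CPM (33.9–52.4). The ratio was 57.6, with an interval from 10.1 to 2301 set by a single RC molecule. RC granulocyte-like cells held 0 UMIs, which allows up to 1.21 CPM at a floor of 3 UMIs over the class, and SAA ones 25, or 7.54 CPM (4.88–11.1). Against that floor the granulocyte-like level was at least 6.23-fold higher in SAA, and with the counting error of both libraries the exact conditional interval of the ratio began at 4.70. The RNA was unevenly spread over the SAA cells. Non-cycling monocyte-like cells stood at 77.4 CPM and cycling ones at 17.7 CPM, a ratio of 4.39 (2.65–7.55), and monocyte-like cells held 5.62 times (3.57–9.16) the granulocyte-like level. With at least 1500 genes and at most 10% mitochondrial UMIs per cell the monocyte-like log2 ratio was 3.62 instead of 5.85, and thinned cells gave 1.20 instead of 2.64 in the granulocyte-like class. The RC side of the first rests on at most 1 UMI, with 0 set to 3. The second is a lower bound, as RC held 0 UMIs. Neither value thus shows that the difference became smaller.

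*Cish* (chromosome 9, 107296026 to 107302784, plus strand), a STAT5-induced inhibitor of cytokine receptors, was seen as 1 UMI in RC monocyte-like cells and as 18 in SAA ones, and as 3 and 37 UMIs in granulocyte-like cells. The CPM were 0.736 (0.0186–4.10) and 8.87 (5.26–14.0) in the first class and 1.21 (0.249–3.54) and 11.2 (7.86–15.4) in the second. Although sparse, the gene was higher in SAA in both classes, with ratios of 12.0 (1.90–502) and 9.22 (2.92–46.8). The log2 ratio of monocyte-like cells ran from 1.58 to 5.01 over the alternatives. Monocyte-like and granulocyte-like cells of SAA could not be told apart at this depth, at a ratio of 0.795 (0.426–1.43). *Gm17041*, on the opposite strand, overlaps the locus.

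**Figure D3:**
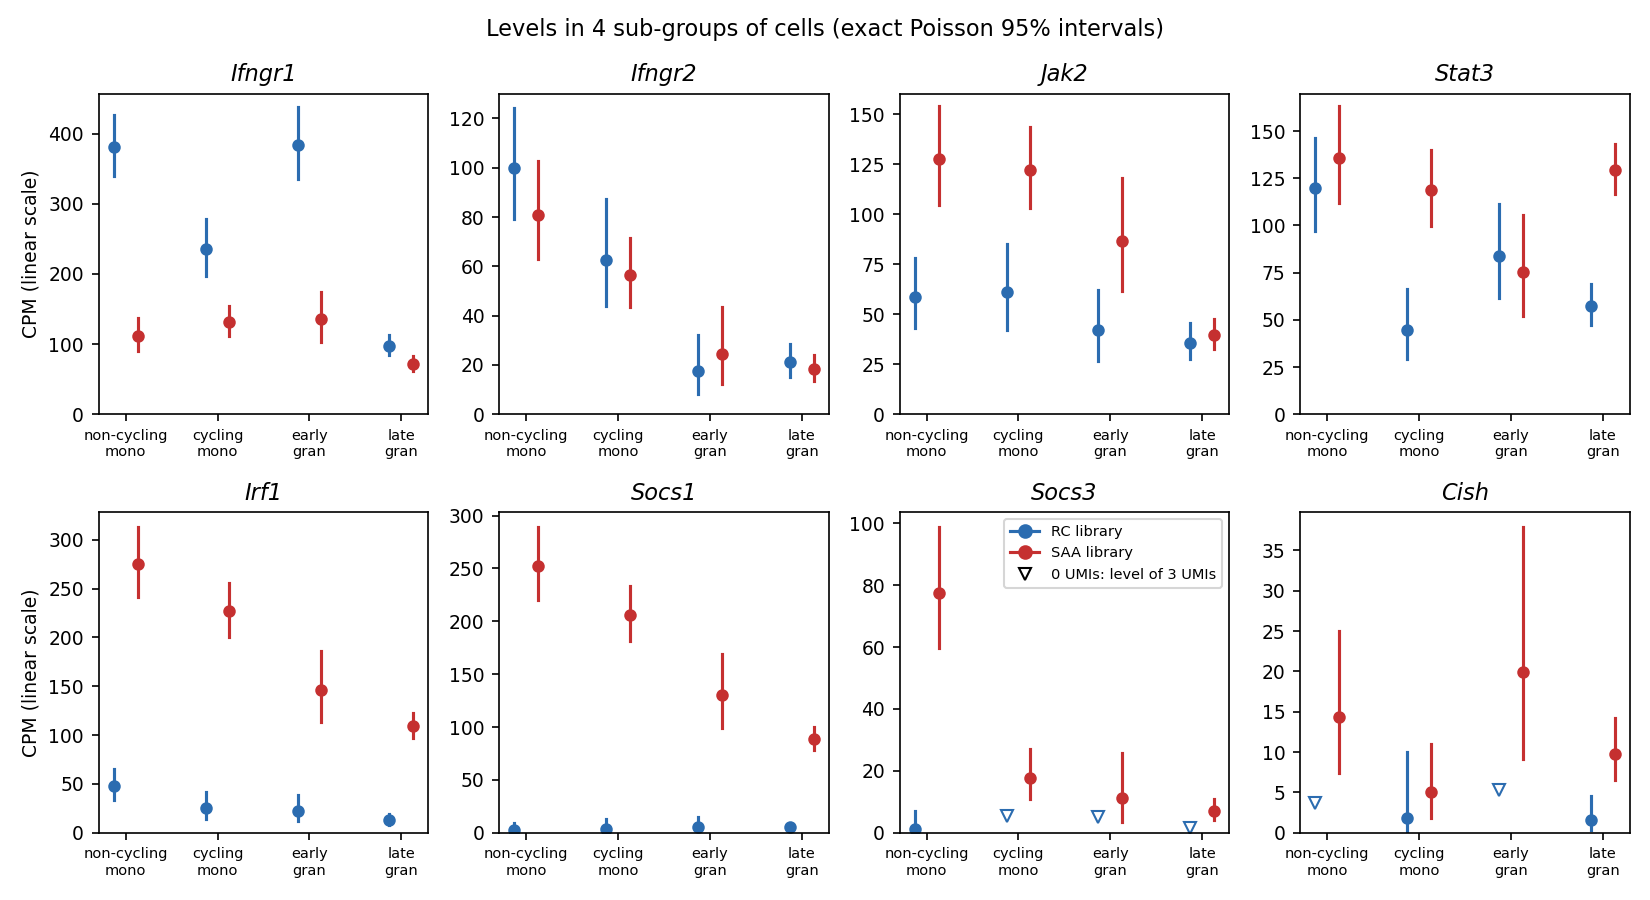
CPM (linear scale, a separate axis for each gene) of 8 of the genes in non-cycling and cycling monocyte-like (mono) and early and late granulocyte-like (gran) cells of RC (blue) and SAA (red), with exact Poisson 95% intervals and open triangles at the level of 3 UMIs where none was found. *Ifngr1* is highest in non-cycling monocyte-like and early granulocyte-like cells of RC (381 and 384 CPM), *Stat3* of RC is lowest in cycling cells (44.8 CPM), and *Socs3* of SAA is highest in non-cycling cells (77.4 CPM).

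Shares of cells with a UMI were compared after each cell was thinned to 2600 UMIs, which left out 76 RC and 18 SAA monocyte-like cells and 1 RC and 8 SAA granulocyte-like cells. Of the monocyte-like cells left out, 74 in RC and 15 in SAA were non-cycling. The thinned shares of this class, most of all in RC, thus describe another mixture of sub-groups than those before thinning. Shares expected over all possible thinnings, added after the data were seen, lay within the interval of the drawn share for 196 of 196 values. A drawn share varies around its expected share, so this could be foreseen and does not show that the draw is without effect. In monocyte-like cells an *Ifngr1* UMI was held by 49.6% (43.5–55.8%) of RC and 27.3% (22.1–33.1%) of SAA cells, against 64.3% and 53.7% before thinning. For *Irf1* the shares were 6.77% (4.06–10.5%) and 46.4% (40.3–52.6%), against 12.3% and 70.5% before thinning. The response genes were thus found in many SAA cells and not in a few, and at least 1 of *Irf1* and *Socs1* was held by 7.52% of RC and 63.7% of SAA cells. For *Socs1* alone the shares were 0.752% and 36.0% (30.2–42.0%), and for *Socs3* 0.376% and 10.5% (7.08–14.8%). At least 1 of the feedback genes *Socs1*, *Socs3* and *Cish* was held by 1.13% (0.233–3.26%) of RC and 43.8% (37.8–50%) of SAA cells. Both receptor chains were found together in 12.0% (8.38–16.6%) of RC and 3.75% (1.81–6.78%) of SAA cells, whereas without thinning the shares were 17.3% and 20%. This gap depended on the draw, since a second draw gave 9.77% (6.48–14.0%) and 5.24% (2.90–8.64%), with overlapping intervals, and the shares expected over all thinnings were 9.92% and 4.31%. In granulocyte-like cells the share with *Irf1* was 4.42% (2.44–7.30%) in RC and 24.0% (19.9–28.4%) in SAA, and that with *Socs1* 0.631% and 18.6% (15–22.7%). Both chains were together in 0.946% and 1.45% of granulocyte-like cells, with overlapping intervals. *Lyz2*, an abundant myeloid gene that T cells lack, was found in 4 of 31 thinned SAA cells (12.9%, 3.63–29.8%) with 2 UMIs of *Cd3e*, *Cd3d*, *Cd3g* and *Trac*, while *Ifngr2* was found in 0 of the 31 (a floor of 3 cells gives 9.68% and the Clopper-Pearson upper limit is 11.2%, both for cells with a UMI), and *Socs1* in 2 (6.45%, 0.791–21.4%). Those cells had a median of 5476 UMIs before thinning.

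**Figure D4:**
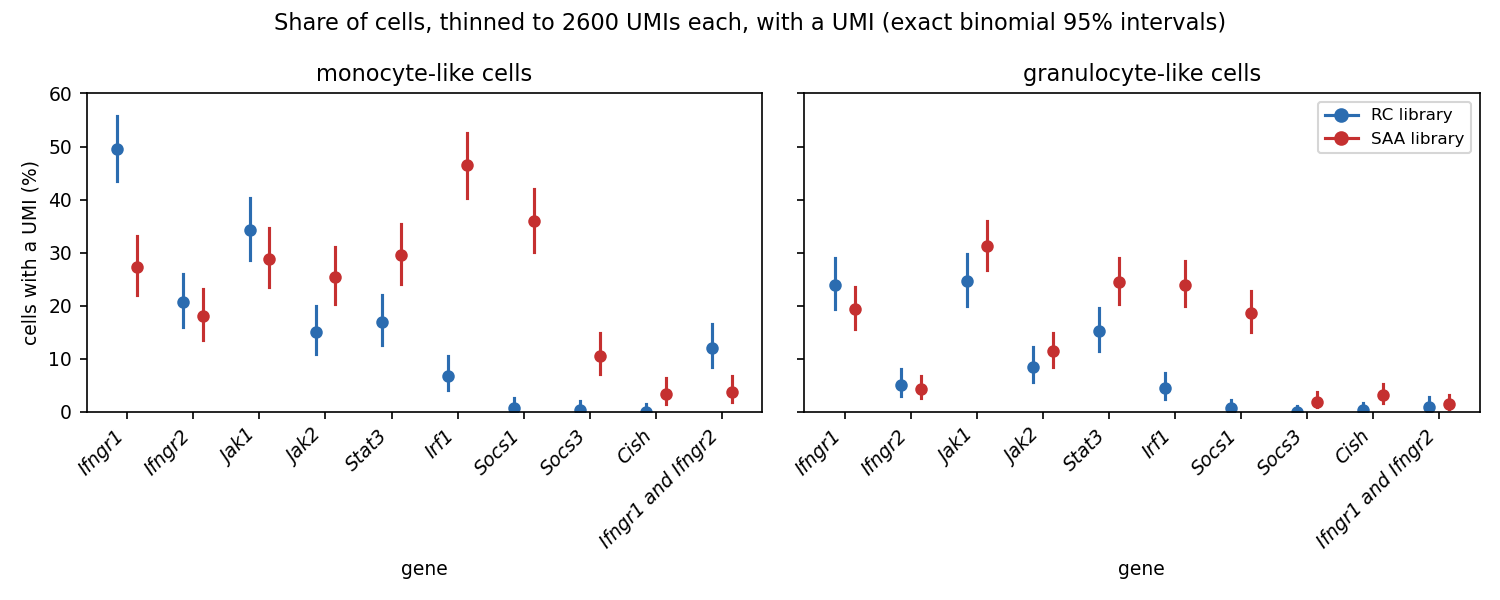
Share of cells (%) with at least 1 UMI of each gene, or of both receptor chains, after thinning to 2600 UMIs per cell, in monocyte-like (left) and granulocyte-like cells (right) of RC (blue) and SAA (red), with Clopper-Pearson 95% intervals. The *Irf1* share is 6.77% in RC and 46.4% in SAA monocyte-like cells, and the share with both receptor chains is 12.0% and 3.75% in the draw plotted.

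The ligand gene *Ifng* was seen in 0 UMIs of the retained RC cells and in 45 UMIs of the SAA cells. Of the 45, 32 lay in the 23 unclassified cells, 9 in 3 monocyte-like cells and 4 in 4 granulocyte-like cells. The 39 SAA cells with at least 2 UMIs of *Cd3e*, *Cd3d*, *Cd3g* and *Trac*, whichever their class, held 37. Of the 23 unclassified cells 22 were among these 39. Their *Jak1* level, 344 CPM (272–430), lay above the intervals of both myeloid classes of SAA. They held 172 CPM of *Ifngr1* (122–235), an interval that overlapped that of SAA monocyte-like cells. *Ifngr2* had 0 UMIs in them, with an upper limit of 16.3 CPM that lay below the SAA monocyte-like interval and overlapped the granulocyte-like one. *Irf1* stood at 102 CPM (64.4–152) and *Socs1* at 48.6 CPM (24.2–86.9) in them, below the monocyte-like levels of SAA.

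Other genes of the pathway were taken as 7 lists, and of each the 4 genes with the most UMIs are named. Among all genes 7.8% were at least 2-fold higher and 8.67% lower in monocyte-like cells. In granulocyte-like cells these shares were 6.63% and 5.12%, and the counts of each list are to be read against them. Of 19 other receptor chains 15 reached 20 UMIs in monocyte-like cells, 5 of them at least 2-fold higher and 2 lower in SAA (median log2 ratio -0.26), and 14 in granulocyte-like cells, 5 higher and 0 lower (0.39). *Csf2rb*, the shared signalling chain of the GM-CSF receptor, had ratios of 2.21 (1.86–2.63) in monocyte-like and 3.70 (3.10–4.45) in granulocyte-like cells. Its ligand-binding partner *Csf2ra* had ratios of 0.649 and 0.972, the type I interferon receptor chain *Ifnar2* 0.676 and 1.21, and the G-CSF receptor *Csf3r* 0.474 and 1.08. The ratios of the GM-CSF receptor's chains thus lay apart in both classes. Of 7 other kinases and STATs, 1 was higher and 1 lower of 6 in monocyte-like cells and 2 higher and 0 lower of 7 in granulocyte-like cells. *Stat2*, which acts with IRF9 in type I interferon signalling, had ratios of 1.76 (1.36–2.31) and 2.86 (2.11–3.95). *Tyk2* (1.09 and 0.876), *Stat5b* (0.751 and 1.35) and *Stat6* (0.746 and 1.24) were all under 2-fold.

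Among negative regulators outside the 9 genes the counts are to be read against 16.5% of all genes past 2-fold in either direction in monocyte-like and 11.7% in granulocyte-like cells. Of 5 other SOCS genes 3 reached 20 UMIs in each class, with 1 lower and 0 higher in monocyte-like cells and 0 in either direction in granulocyte-like cells. *Socs6* had ratios of 0.387 (0.270–0.550) and 1.05, *Socs4* 0.863 and 1.15, and *Socs7* 0.916 and 0.748, while *Socs5* had 15 UMIs over both libraries in monocyte-like and 13 in granulocyte-like cells. Of 9 phosphatases and PIAS genes 0 were higher and 1 was lower in monocyte-like cells (median -0.05), and 1 was higher and 0 lower in granulocyte-like cells (0.33). *Ptpn1*, a phosphatase of JAK2 and TYK2, had ratios of 1.43 (1.23–1.67) and 2.14 (1.71–2.69). For *Ptpn6*, which encodes SHP-1, they were 1.08 and 1.37, for *Ptpn11* 0.963 and 1.28 and for *Ptprc*, which encodes CD45, 0.930 and 1.71.

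The counts of the next 3 lists stand beside 7.8% of all genes higher and 8.67% lower in monocyte-like cells. In granulocyte-like cells the shares were 6.63% and 5.12%. Among 7 other IRF genes, 1 of 6 was higher and 0 lower in monocyte-like cells (median -0.16) and 2 of 6 higher and 0 lower in granulocyte-like cells (0.95). *Irf9* had ratios of 0.944 (0.734–1.22) and 8.09 (5.22–13.2), and *Irf2*, an antagonist of IRF1, 0.706 (0.580–0.860) and 1.97 (1.51–2.58). *Irf5* (0.722 and 1.91) and *Irf8* (0.853 and 1.25), factors of the monocyte lineage, were under 2-fold. Of 10 genes known to follow STAT3 or STAT5, 4 of 7 were higher and 0 lower in monocyte-like cells (median 1.52) and 3 of 9 higher and 2 lower in granulocyte-like cells (0.89). *Pim1*, a kinase gene induced by STAT5, had ratios of 7.50 (5.77–9.91) and 12.7 (9.93–16.6), and *Bcl3* 1.36 (0.884–2.13) and 28.9 (9.65–142). The survival genes *Mcl1* (0.877 and 1.86) and *Bcl2l1* (1.82 and 1.80) were under 2-fold in both classes. *Irf1*, *Socs3* and *Junb* also belong to early responses that handling can raise, and of 15 immediate early and handling genes 5 of 12 were higher and 1 lower in monocyte-like cells (median 0.49) and 4 of 10 higher and 0 lower in granulocyte-like cells (0.72). *Junb* had ratios of 1.10 and 4.82, *Nfkbia* 2.26 and 1.11, *Zfp36* 1.5 and 1.15 and *Ier2* 0.539 and 0.996. Their part in the results for *Irf1* and *Socs3* was not tested.

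The genes most alike in pattern were sought over 8 groups of cells, the 4 sub-groups of each library, by the Pearson correlation of log2(CPM + 10) among 7093 genes. The 8 groups share 2 libraries, so the values describe likeness and nothing more. *Ifngr1* was most like *Pdcd4* (r = 0.978), *Qrich1* (0.975) and *Rps24* (0.973), and *Ifngr2* like *Irak2* (0.997), *Ptp4a2* (0.990) and *Plxnb2* (0.989). The kinase *Jak1* was most like *Il10rb* (0.967), *Kdm7a* (0.948) and *Lysmd3* (0.943), and *Jak2* like *Gm44751* (0.993), *Tbcb* (0.988) and *H2-DMb1* (0.986). *Stat3* had the loosest likeness, to *Gda* (0.923), *Dlst* (0.921) and *Gpr137* (0.912). *Irf1* was most like the guanylate-binding protein gene *Gbp2* (0.989) and close to the peptide transporter gene *Tap1* (0.987). *Socs1* was most like *Gbp4* (0.995), *Gbp6* (0.991) and *Gm4951* (0.990), and *Socs3* like *Saa3* (0.993), *Gm4841* (0.993) and *Bcl2a1b* (0.992). *Cish* had too few UMIs for this comparison.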

How the data were processed

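Single-cell RNA sequencing (10x Genomics, 5′ chemistry) of sorted bone marrow cells gave 1 library per group, each of the pooled cells of 3 mice. The deposited values are raw UMI counts, not normalized, for each gene and called barcode. Per the labels, Cell Ranger 6.0.1 and the mm10 build were used to make them. The annotation release is not given in the sources used here. The 9 genes and the gene lists were chosen with earlier results of these data known.

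Barcodes with at least 1000 genes were kept, classed by marker sums, and their counts summed per library and class. Of the retained barcodes 0 held over 25% mitochondrial UMIs. No doublet caller was run, so cells holding both marker sets remain in the class with the larger sum (the smaller sum exceeded 50% of the larger in 10 RC and 36 SAA cells). With 1 library per group there was no test. Genes named are the 9, the 4 of each other list with the most UMIs, the most alike genes with at least 100 UMIs, and *Ifng*. A gene selected in this way is left out of the text. Called means a ratio of at least 2 with 20 UMIs over both libraries, and a group with 0 UMIs was set to 3. Alternatives changed the filter, class rule, scaling (including TMM, edgeR 4.0.16), cell weights, thinning and minimum UMIs. Intervals of the ratios were tried on counts simulated with Poisson error alone, the error they assume. That trial cannot show how they fare with spread between cells or mice. Gene positions were read from a GRCm38 annotation, in which 30934 identifiers were found, and promoters from RefSeq GRCm38.p6. Python 3.11.15, scipy 1.17.1, R 4.3.3 and matplotlib 3.10.9 were used.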

Additional observations from a re-analysis of the deposited data

Results flagged for a closer look

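*Jak1* was lower in SAA in monocyte-like cells (ratio 0.773, 0.643–0.930) and higher in granulocyte-like cells (1.36, 1.17–1.59), with counting intervals on opposite sides of 1, and the difference between the classes was not tested. The direction in each class held in all 13 alternatives. Barcodes with under 1000 genes, 136 in RC and 96 in SAA, were left out of the report's comparisons, and in them 3 genes had SAA to RC ratios whose counting intervals lay above 1. *Jak2* was at 122 CPM in SAA against 27.0 CPM in RC, *Irf1* at 201 against 40.5 CPM, and *Socs1* at 101 against 4.50 CPM. These SAA values rest on 17, 28 and 14 UMIs and those of RC on 6, 9 and 1. The *Socs1* ratio had an interval from 3.41 to 946, set by a single RC molecule. *Ifngr1* was lower there, at 144 against 351 CPM, a ratio of 0.410 (0.238–0.677). The intervals of *Ifngr2*, *Jak1* and *Stat3* included 1, and *Socs3* and *Cish* had 2 and 3 UMIs in SAA against 0 in RC. In the 23 SAA cells that tied between the marker sums *Ifng* had 32 UMIs, where the 2 tied cells of RC had 0. The tied cells of the libraries were unlike. At least 2 UMIs of *Cd3e*, *Cd3d*, *Cd3g* and *Trac* were held by 22 of the 23 in SAA and by 0 in RC.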

How the results depend on the processing

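No paired analysis was possible because each group had 1 library, and for the same reason no replicate could be left out. Of 234 alternative values of the 18 log2 ratios (9 genes in 2 classes, 13 alternatives each) 228 lay within the counting interval of the reported value. The other 6 lay outside, and 0 of these 6 had the opposite sign. The sign held in 17 of the 18, the exception being *Ifngr2* in granulocyte-like cells, where values of both signs lay within the interval. The number of the 9 genes at least 2-fold higher in granulocyte-like cells was 2 instead of 4 when cells were thinned to 1 depth, where *Socs3* and *Cish* no longer reached 20 UMIs. The number at least 2-fold lower there, *Ifngr1* alone, was 0 in 5 settings. In 1 of them cells holding 3 UMIs of T or NK markers, mostly *Nkg7* in this class, were left out. The others used totals lacking the 5% of genes most different, cells weighted equally, cells thinned and the RC mixture of sub-groups. A minimum of 1 UMI instead of 20 moved the share of all genes past 2-fold to 12.8% higher and 17.6% lower in monocyte-like and to 11.9% higher and 16.3% lower in granulocyte-like cells, and a minimum of 100 UMIs moved the lower shares to 5.47% and 1.82%. At 1300 UMIs per cell the share with both receptor chains was 2.92% for RC monocyte-like, 1.75% for SAA monocyte-like and 0.238% for SAA granulocyte-like cells. Depth limits *Socs3* and *Cish* most, which had at most 3 UMIs per class in RC.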

Other observations

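Non-cycling monocyte-like cells of SAA fell into 106 cells with a UMI of the chemokine gene *Cxcl9* and 51 without one, with medians of 5046 and 4250 UMIs. *Socs1* stood at 298 CPM (256–345) in the cells with *Cxcl9* and 134 CPM (90.8–190) in those without, a ratio of 2.23 (1.52–3.38). For *Ifngr1* the levels were 112 and 112 CPM, a ratio of 0.999 (0.627–1.64), and for *Jak2* 128 and 125 CPM, a ratio of 1.03 (0.663–1.63). *Irf1* stood at 291 and 233 CPM, a ratio of 1.25 (0.918–1.73), and *Socs3* at 85.6 and 56.0 CPM, a ratio of 1.53 (0.820–3.06). The split uses the same cells and library, so it describes these cells.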
